A study of Mus musculus with 6 samples.

Results

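This account describes 3344 genomic regions that carry a young LINE-1 (L1) element of the L1Md_A family between genes on the mouse autosomes. They were taken from a list of 39096 regions that a ChIP-seq study of PHF13 in testis deposited. A region was kept if it lay on chromosomes 1 to 19, if the authors' annotation called it intergenic, if the repeat named for it was L1Md_A, and if the nearest transcription start site (TSS) was at most 500 kb away. The regions made up 8.55% of the list, 16.9% of its 19819 autosomal regions (Wilson 95% interval 16.4 to 17.4%) and 65.1% of its 5139 autosomal L1Md_A regions. The other autosomal L1Md_A regions were 1031 in introns and 764 between genes but beyond 500 kb. At that limit, the farthest region kept lay 499866 bp from a start site of Kcnd2 (score 9.13), and the nearest one left out lay 500072 bp from that of Gm5415 (score 23.1).

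The chromatin came from testis of C57Bl/6 mice aged 5 weeks. The protein is named SPOC1 in the library titles. Of the 3 ChIP libraries, 2 carry the genotype label Phf13-/- and 1 is labelled wild type; of the 3 inputs, 1 is labelled Phf13-/- and 2 wild type. Replicate 2 has a ChIP library labelled Phf13-/- and an input labelled wild type under 1 animal code, so genotype was not used. The list has 1 score for each region and 0 columns for single libraries, and the sources used here do not say which libraries entered it. No test over samples could therefore be made, the depth per library is unknown, and the regions are not called binding sites. Intervals beside shares and medians cover counting error only, and groups of regions are compared by their values with no test of the difference.

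L1 elements are retrotransposons. They are copied into RNA, and the proteins they encode write that RNA back into the genome as DNA. Copying begins at the 3′ end of the element and often stops early, so most copies lack the 5′ end, where the promoter lies. L1Md_A, L1Md_T and L1Md_Gf are the mouse families that still hold mobile copies, and they differ in the repeated units of that promoter. In the male germ line, DNA methylation, histone methylation and piRNAs hold these elements silent. PHF13, also called SPOC1, recognises methylated histone H3 through its PHD finger.

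No genome of the build was used, so letters can be shown at the 1 position where a RefSeq promoter window and a region of the set overlapped. Of 32851 windows, each from 250 bases before to 50 bases after a start, only that of the long noncoding RNA Gm33067 overlapped one. The window lies at chr7:39146238-39146537 (mm10, GRCm38.p6, plus strand) inside the region chr7:39146227-39146993, and covers 39.2% of it. The region was 766 bp long with a score of 20.8, or 27.2 per kb, close to the middle of the set. The authors' annotation gave Gm5114, 267 kb away, as its nearest gene. The windows of 17 other genes, 0.052% of all, held at least 1 stretch of 20 bases that also occurs in this window or its reverse complement. None of the 17 overlapped a region of the list, and the nearest region lay between 3.7 and 379 kb away. The sequence is shown with the 2 most alike, those of 4930488N24Rik and Gm33586, which RefSeq lists as a predicted protein-coding gene and a long noncoding RNA. Each runs 5′ to 3′ on its gene's strand, and capitals mark the 246 bases covered by stretches of 20 bases that all 3 windows share.
Gm33067: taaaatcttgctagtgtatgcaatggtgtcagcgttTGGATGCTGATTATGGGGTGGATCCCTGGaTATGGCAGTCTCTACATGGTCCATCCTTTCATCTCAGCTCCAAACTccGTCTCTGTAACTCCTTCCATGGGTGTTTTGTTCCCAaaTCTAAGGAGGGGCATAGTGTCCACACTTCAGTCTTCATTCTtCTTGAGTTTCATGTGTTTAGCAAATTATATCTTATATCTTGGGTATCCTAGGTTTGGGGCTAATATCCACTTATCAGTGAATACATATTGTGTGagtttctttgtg
4930488N24Rik: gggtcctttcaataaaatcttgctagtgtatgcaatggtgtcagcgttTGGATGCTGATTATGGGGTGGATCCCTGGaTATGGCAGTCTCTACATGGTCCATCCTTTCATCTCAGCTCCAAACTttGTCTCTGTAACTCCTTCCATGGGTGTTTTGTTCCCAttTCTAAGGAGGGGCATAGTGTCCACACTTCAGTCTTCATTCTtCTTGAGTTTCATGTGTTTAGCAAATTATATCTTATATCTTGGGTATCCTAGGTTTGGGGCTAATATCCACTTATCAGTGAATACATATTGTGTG
Gm33586: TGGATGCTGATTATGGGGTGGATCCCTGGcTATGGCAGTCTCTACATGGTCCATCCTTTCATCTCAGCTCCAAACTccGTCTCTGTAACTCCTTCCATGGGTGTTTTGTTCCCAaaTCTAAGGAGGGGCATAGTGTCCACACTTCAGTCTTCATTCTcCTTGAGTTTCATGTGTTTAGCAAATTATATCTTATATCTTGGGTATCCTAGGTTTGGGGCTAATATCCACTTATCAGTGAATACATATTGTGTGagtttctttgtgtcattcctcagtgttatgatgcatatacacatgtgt
The window of 4930488N24Rik is at chr17:14107851-14108150 (minus strand), 11.6 kb from the nearest region of the list, and that of Gm33586 at chr7:112987176-112987475 (plus strand), 379 kb from the nearest. Nearly the same letters thus lay inside a listed region on chromosome 7 and outside any at the other two positions. The Gm33067 window had 41.7% G and C and 2 CpG dinucleotides, against medians of 52.7% and 7 over all windows. The start site of Gm33067 lies in the shown sequence, before its last 50 bases.

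Most of the regions were short. The median length was 775 bp (95% interval 764 to 787), with quartiles of 500 and 1396 bp. Exactly 500 bp was the length of 995 regions, or 29.8%, and no region was shorter. None fell between 501 and 599 bp, and the next length was 625 bp. At the other end, 263 regions (7.87%) reached 3 kb and 51 (1.53%, Wilson 95% interval 1.16 to 2%) reached 5 kb. The longest was 6059 bp. Together the regions covered 4.04 Mb.

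The lengths did not thin out evenly. There were 63 regions of 1700 to 1949 bp but 125 of 2000 to 2249 bp. Likewise there were 28 of 3200 to 3549 bp, 74 of 3600 to 3949 bp and 20 of 4000 to 4349 bp. Per bin of 50 bp, L1Md_T had 15 to 25 regions from 1700 to 1949 bp and 23 to 34 from 2000 to 2249 bp. From 3200 to 3549, 3600 to 3949 and 4000 to 4349 bp, L1Md_T had 6 to 16, 3 to 14 and 5 to 13 per bin. The first rise was thus also seen at L1Md_T, and the second was not. Both rises were noticed after the lengths were seen, and the list gives neither the ends nor the strand of the element under a region.

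**Figure D1:**
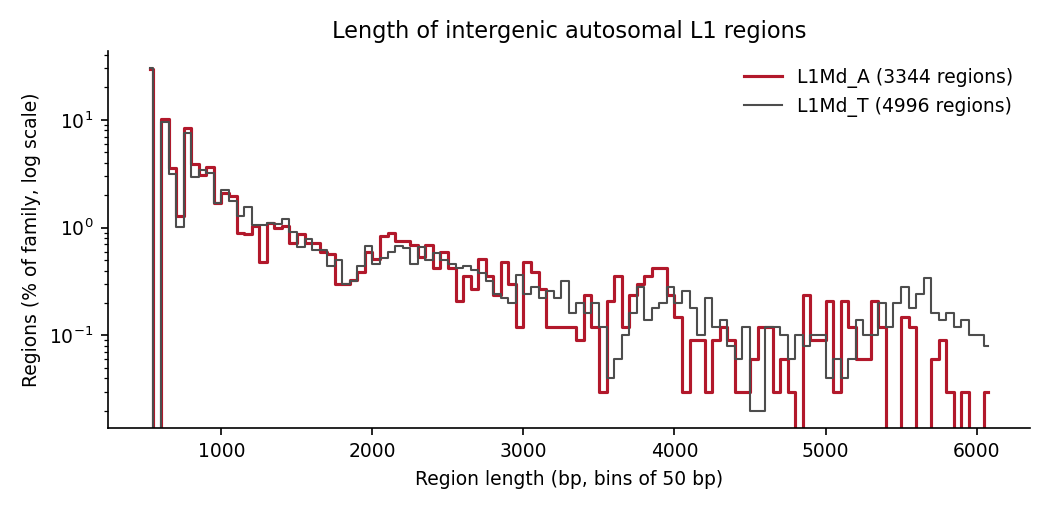
Share of regions in each bin of 50 bp of length, on a log scale, for the 3344 L1Md_A regions (red) and the 4996 L1Md_T regions chosen by the same rule (grey). Both lines fall from about 30% at 500 bp, and the L1Md_T line is the higher one beyond 5500 bp; a line drops to the axis where a bin is empty, and 14 L1Md_T regions of over 6100 bp are not drawn.

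The score followed the length closely. Its median was 22.1 (quartiles 15.3 and 43.3) and it ran from 4.88 to 197. Divided by length, the median was 29.1 per kb (95% interval 28.9 to 29.4), and 2938 regions (87.9%) lay between 20 and 40 per kb. The median for the whole list, X and Y included, was 19.12 per kb. All autosomal intergenic regions within 500 kb of a TSS had medians of 28.4 to 29.1 per kb in each range of distance beyond 5 kb, and these include the L1Md_A regions themselves.

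Short regions had slightly lower and far more scattered values than long ones. Regions of 500 bp had a median of 26.4 per kb (quartiles 22 and 31.6), and those over 5000 bp had 31.4 per kb (quartiles 29.8 and 32.6). The values of the length classes from 1501 bp upwards lay within 30.8 and 31.4 per kb at the median. The standard deviation was 27.7% of the mean at 500 bp and 6.62% over 5000 bp. The scores lie on a grid with a step of 0.2124. If 1 step were 1 sequenced tag, counting error alone would be 13.2% at 500 bp and 3.57% over 5000 bp, so in both classes the observed scatter would be larger than counting error. On the same assumption the median region held 104 tags.

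**Figure D2:**
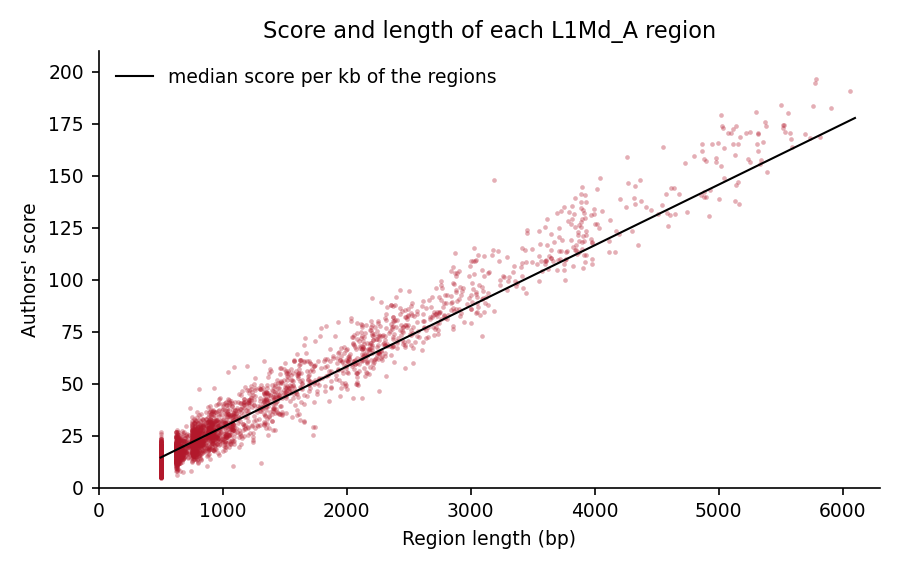
Authors' score against region length (bp), with 1 point for each of the 3344 regions; the line is the median of 29.1 per kb. The points form 1 narrow band along the line, from 500 bp to 6059 bp, and regions above 1.5 kb lie mostly just over it.

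The 5 regions with the highest score were 5506 to 6059 bp long. The first, at chr2:21300911-21306695 (5784 bp, score 197, 34.0 per kb), lay 63.8 kb upstream of the start of Gpr158, a G protein-coupled receptor of the brain. The next, at chr4:96995462-97001242 (5780 bp, score 195), lay near the predicted gene Gm12695. The longest region of all, chr10:38951353-38957412 (6059 bp, score 190.5), lay 11.1 kb upstream of Lama4, a laminin chain of the basement membrane of blood vessels. The fourth and the fifth, at chr12:57816128-57821634 (score 184) and chr15:44861549-44867313 (score 183.5), were nearest to 4921506M07Rik and the pseudogene A930017M01Rik. Among the 5 longest were also chr8:129273148-129279054 (5906 bp, score 183) near 2610044O15Rik8 and chr13:92599198-92605013 (5815 bp, score 169), 9.03 kb upstream of Serinc5, a membrane protein of the serine incorporator family. Their values of 29.0 to 34.0 per kb were ordinary for the set.

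The highest values per kb belonged to other, mostly shorter regions. Among those of at least 1000 bp, the highest was 53.4 per kb at chr10:6627150-6628240 (1090 bp), 161 kb upstream of Oprm1, the mu opioid receptor. A region of 1046 bp at chr4:26055888-26056934, near the fucosyltransferase gene Fut9, had 53.2 per kb, and one of 1194 bp near the synaptic vesicle gene Sv2b (chr7:74959015-74960209) had 49.1. The region chr7:72656545-72659736 near Mctp2 stood apart for its length: it had 46.3 per kb over 3191 bp, and a score of 148. The fifth, at chr3:123935561-123936897 near Ndst3, an enzyme of heparan sulphate synthesis, had 45.4 per kb.

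Many regions were close neighbours of one another. Another region of the set lay within 10 kb for 55.5% of them (Wilson 95% interval 53.8 to 57.2%), against 57.8% of L1Md_T regions. Gaps between neighbours fell into separate ranges: 16% were under 1 kb and 12.1% from 1 to 3 kb, only 3.13% from 3 to 10 kb, 13.7% from 10 to 100 kb, 34.3% from 100 kb to 1 Mb and 20.7% longer. The shortest gap was 500 bp. When regions less than 10 kb apart were joined, 2305 loci remained, and joining below 3 kb gave 2409.

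The identity of the nearest listed region changed with its distance. Where the nearest region of any kind lay under 1 kb away (1041 regions), it was also named L1Md_A in 96.5% of cases and L1Md_T in 1.54%. From 1 to 3 kb the L1Md_A share was 92.3%, from 3 to 10 kb 50.7%, and from 10 to 100 kb 28.8%. Over all autosomal regions of the list, L1Md_A made up 25.9% and L1Md_T 38.8%. Close neighbours were thus almost always of the same family, while distant ones came near the make-up of the list. L1Md_T regions showed the same pattern, with a neighbour of their own family in 97.4% of cases under 1 kb, 93.2% from 1 to 3 kb, 59.6% from 3 to 10 kb and 39% from 10 to 100 kb. Whether close neighbours are parts of 1 element was not tested.

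Of the 2305 loci, 1489 held 1 region, 620 held 2, 176 held 3 and 20 held 4 or more. Loci of 1 region had a median span of 779 bp. Loci of 2 regions had a median span of 3822 bp and those of 3 had 4976 bp, with quartiles of 4676 and 5723 bp. Spans of 4 to 6 kb were found in 5.37% of loci with 1 region, 39.2% of those with 2 and 64.8% of those with 3. In loci of 2, the longer region had a median of 1348 bp, the shorter one 500 bp and the gap between them 1027 bp. The longer one came first along the chromosome in 296 of these loci and last in 265, with 59 ties. In loci of 3, the middle region was the longest in 85 of 176, with a median of 910 bp, against 638 bp for the outer ones.

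Long loci were seldom covered without a break. A single region of 5 kb or more made up 45 loci, with a median score of 170.3 and 31.5 per kb. Another 173 loci spanned 5 to 6 kb in several regions. Their median span was 5309 bp, of which 3714 bp was covered, and their median summed score was 114, or 30.5 per kb of covered length. Broken loci had a score per covered kb similar to that of unbroken ones. Their gaps leave less length covered by definition, so their lower summed score is no separate result.

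**Figure D3:**
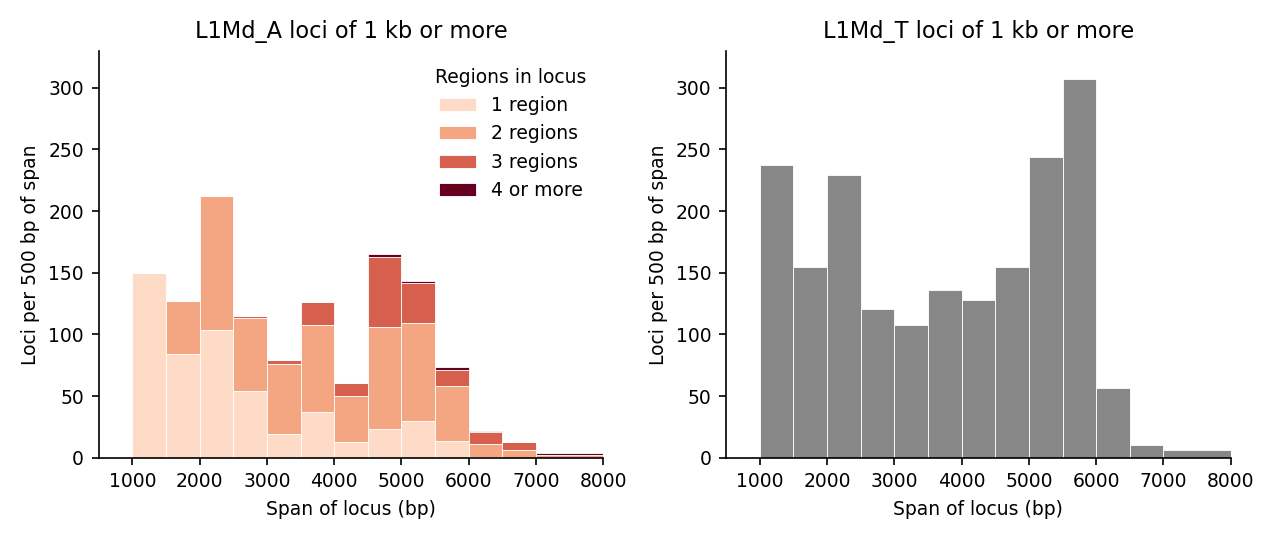
Number of loci per 500 bp of span, for loci of 1 to 8 kb made by joining regions less than 10 kb apart: L1Md_A at the left, coloured by the number of regions in the locus, and L1Md_T at the right. Among the long loci, the tallest L1Md_A bar is at 4500 to 5000 bp (165 loci), made mostly of loci with 2 or 3 regions, and the tallest L1Md_T bar is at 5500 to 6000 bp (307 loci).

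The largest number of regions within 100 kb was 10, at chr9:36593931-36659957, around the RIKEN gene A630095E13Rik and the predicted gene Gm17689. Along the chromosome their lengths were 859, 500, 500, 2492, 500, 631, 2517, 648, 936 and 1086 bp. In the same order the scores were 23.4, 11.5, 15.9, 78.4, 9.98, 15.9, 68.8, 18.5, 26.3 and 10.6. The last of them was low for its length, at 9.76 per kb, and the others had 19.96 to 31.8 per kb. A run of 7 regions over 33.5 kb upstream of Oprm1 held the region with the highest value per kb among those of at least 1000 bp, and its other 6 regions had 20 to 36.1 per kb. A run of 7 on chromosome 6 included 6 regions of 500 to 866 bp within 8435 bp near C130060K24Rik, with 26.4 to 34.4 per kb. The remaining run of 7 lay on chromosome 18, nearest to Prr16, within 21.2 kb.

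There were also wide stretches with none. The median gap between joined loci was 406 kb (95% interval 370 to 443 kb), and 15 gaps between neighbouring regions were 10 Mb or longer. The longest, 19.08 Mb, lay on chromosome 2 between 159.8 and 178.9 Mb. The next were 16.6 Mb on chromosome 4 and 16.1 Mb on chromosome 5.

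Every autosome carried such regions, from 47 on chromosome 19 to 320 on chromosome 3. The density was 1.36 ± 0.265 regions per Mb (SD, n = 19 chromosomes). Chromosome 3 had 2.04 per Mb (95% Poisson interval 1.82 to 2.28), chromosome 4 had 1.65 (1.45 to 1.86) and chromosome 7 had 1.51 (1.32 to 1.73). At the low end, chromosome 17 had 1.19, chromosome 11 had 0.856 (0.697 to 1.04) and chromosome 19 had 0.806 (0.592 to 1.07). The highest density was 2.53 times the lowest. The interval of chromosome 3 overlapped that of chromosome 4 alone, while all 18 pairs of neighbours in the order overlapped. These intervals count each region as independent, yet 55.5% had another within 10 kb, so they are likely too narrow. The 320 regions of chromosome 3 formed 215 loci, and no intervals were made for the density of loci. Joined loci gave a similar range, with 2.35 times as many per Mb on chromosome 3 as on chromosome 19.

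Score per kb and length varied little among chromosomes. The median score per kb by chromosome was 29.1 ± 0.561 (SD, n = 19) and ran from 28.0 on chromosome 5 to 30.0 on chromosome 12. The median length by chromosome was 777 ± 52.4 bp, from 680.5 bp on chromosome 7 to 870.5 bp on chromosome 15. Chromosome 15 also had the largest share of regions of 5 kb or more, 4.67% of its 150 regions. Chromosomes 17 and 19 had 0 among 108 and 47 regions. Only 51 regions reached 5 kb over all autosomes, so these shares rest on few regions. Chromosome 7 stood apart in the distance to the nearest TSS, with a median of 40.6 kb against 120.9 ± 29.0 kb over the 19 autosomes. Chromosome 7 also had the most protein-coding genes per Mb, 14.2. Next in gene density came chromosomes 11 (13.5), 19 (12.2) and 17 (11.4), with median distances of 141.8, 118.3 and 85.6 kb. Whether gene density and distance go together was not tested.

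**Figure D4:**
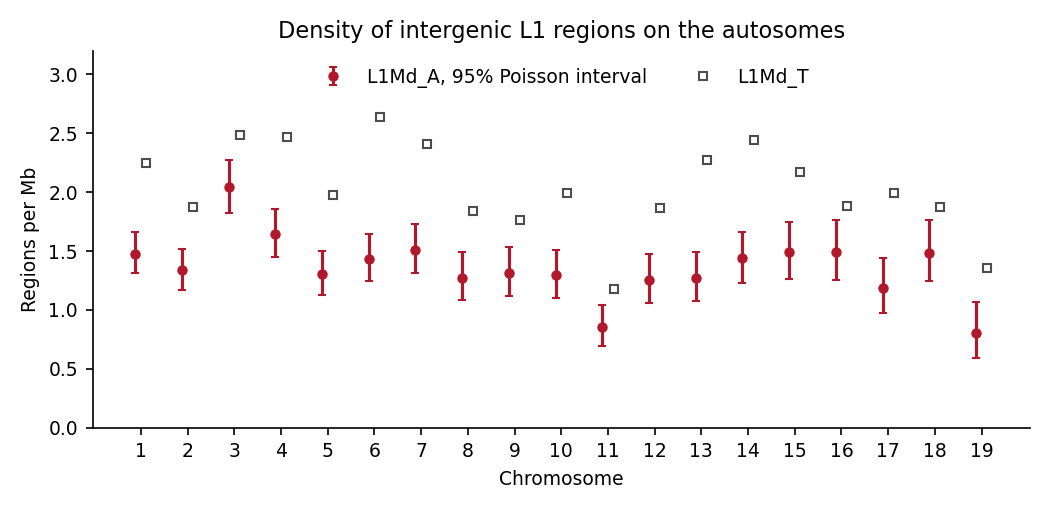
Regions per Mb on each autosome for L1Md_A (red points with 95% Poisson intervals) and L1Md_T (open grey squares). For L1Md_A, chromosome 3 is highest at 2.04 per Mb and chromosomes 11 and 19 lie lowest, and L1Md_T is above L1Md_A on every chromosome.

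The median distance to the nearest TSS, by the authors' annotation, was 123 kb (95% interval 117 to 127 kb). It was 113 kb for L1Md_T regions and 97.2 kb for all autosomal intergenic regions within 500 kb. Of the L1Md_A regions, 1884 (56.3%) lay beyond 100 kb, against 53.8% of L1Md_T regions and 49.1% of all. Within 10 kb lay 162 (4.84%), against 4.94% of L1Md_T regions and 6.75% of all, and within 5 kb lay 38. None lay within 1 kb, and the same held for all 12952 autosomal intergenic regions within 500 kb, so this belongs to the intergenic class. Length and score per kb were similar at all distances. Regions at 1 to 5 kb had a median of 788.5 bp and 29.3 per kb, and those at 400 to 500 kb had 758 bp and 29.5 per kb.

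The 5 regions nearest to a start were 625 to 829 bp long. The closest lay 1274 bp upstream of Abcb1a, which encodes a drug efflux pump (chr5:8658404-8659233, 829 bp, score 20). Next came regions 1419 bp upstream of 2010315B03Rik (chr9:124313781-124314446, score 15.3), 1584 bp upstream of the olfactory receptor gene Olfr1080 (chr2:86559343-86560102, score 19.3) and 1881 bp upstream of Olfr1053 (chr2:86316854-86317479, score 24.2). The fifth lay 2125 bp upstream of Lce3f, a gene of the cornified envelope of skin (chr3:92989711-92990492, score 24.2). Olfactory receptor genes are similar copies in clusters, and the sources used here do not state how reads that match several places were assigned.

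More regions lay upstream of their nearest TSS than downstream, 1990 of 3344 (59.5%, Wilson 95% interval 57.8 to 61.2%). The share was 75.8% at 5 to 10 kb, 65.7% at 10 to 50 kb and 42.5% at 400 to 500 kb. By the gene models of the annotation, an intergenic region downstream of a start lies beyond the end of that gene. Whether this accounts for the upstream share was not tested. L1Md_T regions had 59% upstream and all autosomal intergenic regions within 500 kb had 59.2%.

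**Figure D5:**
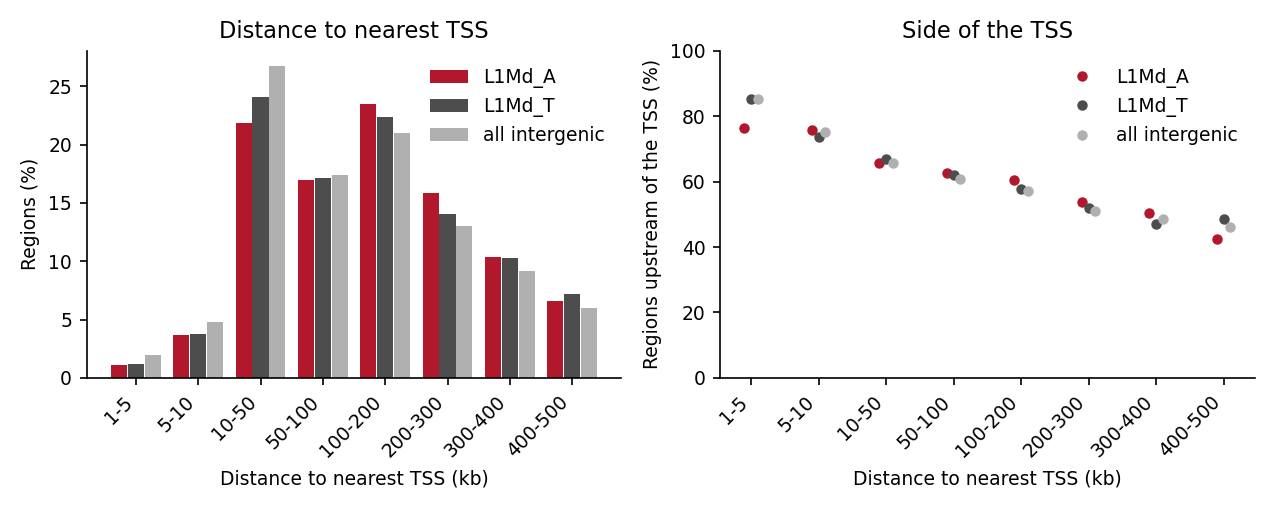
Left, share of regions by distance to the nearest TSS (kb, bins of unequal width); right, share of the regions in each bin that lie upstream of that TSS. L1Md_A is red, L1Md_T dark grey and all autosomal intergenic regions within 500 kb light grey; the upstream share of L1Md_A falls with distance to 42.5% in the last bin, and L1Md_A has a smaller share of its regions at 1 to 50 kb than all intergenic regions.

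The regions named 1584 different nearest genes, of which 1582 matched RefSeq by gene number, and 1 region had no gene named. A gene was named by 1 region in 739 cases and by 5 or more in 118. Chordc1, an HSP90 co-chaperone, was named most often, by 12 regions in 5 loci between 53 and 441.5 kb upstream of it. They ranged from 500 to 3628 bp, with scores from 10.8 to 105 and a median of 28.7 per kb. Izumo3, a gene of sperm acrosome formation, was named by 10 regions in 7 loci, from 80.9 to 364 kb away on both sides. Their scores ran from 11.7 to 70.9. Lrrc4c, a synaptic adhesion protein that binds netrin-G1, had 10 regions in 7 loci with scores of 13.2 to 164. The other genes with 10 were 1700008P02Rik, Gm20268, the microRNA gene Mir1187 and Rprl2.

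Those with 9 were G6pd2, a copy of the glucose-6-phosphate dehydrogenase gene that is active in testis, Ndufa4, a gene of the mitochondrial respiratory chain, Prr16, Gm5860 and 4930553E22Rik. Genes with 8 were Ano5, Lrrn1, Tmem38b, Vstm2a, A630095E13Rik and LOC101056136. The region closest to any of these 18 genes lay 5.39 kb from the start of 1700008P02Rik, which also had a region with a score of 165. In all, 79.7% of the regions had a protein-coding gene as their nearest, 18% a noncoding RNA gene and 2.06% a pseudogene.

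Of 20665 autosomal protein-coding genes in RefSeq, 1287 were named by at least 1 region, a background of 6.23%. Over 6 short lists of germ line, testis and transposon control genes, with 123 autosomal genes in all, 1 gene was named, 0.813%. The lists were chosen by hand and do not hold Izumo3 or G6pd2. The lists of transposon control and the piRNA pathway (38 genes), meiotic prophase (25), spermatogonia (16), Sertoli, Leydig and other testis cells (14), and PHF13 with histone methylation factors (15) had 0. Spermiogenesis had 1 of 15, Pgk2, the phosphoglycerate kinase of late male germ cells. Its 5 regions on chromosome 17 had lengths of 699, 647, 500, 637 and 868 bp along the chromosome. Their scores were 22.5, 18.7, 12.3, 14.2 and 36.3. The last, at chr17:40216474-40217342, was the closest, 8.30 kb upstream, and had 41.8 per kb, above the other 4 at 22.3 to 32.2 per kb.

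Gene families were set beside the L1Md_T regions and all autosomal intergenic regions within 500 kb. Olfactory receptor genes were nearest to 108 regions (3.23%, Wilson 95% interval 2.68 to 3.89%), against 3.4% of L1Md_T regions and 2.98% of all. These regions named 81 genes, lay at a median of 10.8 kb from the TSS, and 51 of them were within 10 kb. Vomeronasal receptors of the Vmn1r family were nearest to 50 regions (1.5%, against 1.16% of L1Md_T regions and 1.55% of all) and those of the Vmn2r family to 42 (1.26%, against 1.08% and 1.48%). Zinc finger genes named Zfp were nearest to 42 regions (1.26%, against 1.08% of L1Md_T regions and 1.31% of all), 7 of them at Zfp804a and 6 at Zfp960. Cadherin and protocadherin genes, which encode adhesion molecules, were nearest to 25 (0.748%, against 1.08% of L1Md_T regions and 0.911% of all), at a median of 203 kb, with 7 at Pcdh18. MicroRNA genes were nearest to 127 regions (3.8%, against 3.34% of L1Md_T regions and 3.31% of all). Predicted genes named Gm were nearest to 266 regions, 7.96% (7.09 to 8.92%), against 8.85% of L1Md_T regions (8.09 to 9.67%) and 9.62% of all (9.12 to 10.1%). The intervals of L1Md_A and L1Md_T overlapped for each of these families. Those of L1Md_A and all intergenic regions, which include the L1Md_A regions, overlapped for each but the Gm genes. These intervals count each region as independent, yet the 266 Gm regions named only 117 genes, so they are likely too narrow. Whether the Gm share differs was not tested.

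The class intergenic depends on the gene models used. By RefSeq genes of GRCm38.p6, 419 of the regions (12.5%) had their centre inside an annotated gene. The gene was a long noncoding RNA for 221 regions, a protein-coding gene for 144 and a pseudogene for 35. The immunoglobulin heavy chain locus, annotated as 1 long gene Igh, held 11, and the noncoding Gm29536 held 7. The protein-coding gene S100a7l2 and the noncoding Gm30335 held 5 each. Arhgap24, a GTPase-activating protein, and the noncoding Gm30340 held 4 each.

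L1Md_T, the other large young family, gave 4996 regions under the same rule. The median length was 775 bp at L1Md_A and 786 bp at L1Md_T, a difference of -11 bp (95% interval -27.3 to 5.97), with L1Md_A the shorter on 10 of 19 autosomes. The size of this difference depended on the regions included: it was -82 bp (-127 to -27.9) without the regions of 500 bp and -70 bp (-122 to -19.7) for the 50% of listed regions with the higher score. With no distance limit it was -15.5 bp (-30.0 to -1), and with introns -20 bp (-38.6 to -2.97). Per kb, L1Md_A had a median score of 29.1 and L1Md_T one of 29.5, a difference of -0.319 (-0.68 to -0.00695), with L1Md_A lower on 11 of 19. The ratio of L1Md_A to L1Md_T regions was 0.673 ± 0.0789 (SD, n = 19). It was lowest on chromosome 6 (0.544) and highest on chromosome 3 (0.82).

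L1Md_A and L1Md_T differed in their longest regions. Regions of 5 kb or more made up 1.53% of L1Md_A (1.16 to 2%) and 3.38% of L1Md_T (2.92 to 3.92%), and the share was lower at L1Md_A on 18 of 19 autosomes. Joined loci of 5 kb or more made up 13.5% of L1Md_A loci (12.1 to 14.9%) and 22% of L1Md_T loci (20.6 to 23.4%). Among loci of 4 to 8 kb, the median span was 5042 bp at L1Md_A (486 loci) and 5406 bp at L1Md_T (914 loci), a difference of -363.5 bp (95% interval -436 to -275). L1Md_A was the shorter on 18 of 19 autosomes. The exception was chromosome 19, which had the fewest such L1Md_A loci, 8. L1Md_Gf had only 143 regions under the same rule, and 2.1% of them (0.716 to 5.99%) reached 5 kb. That interval holds the shares of both L1Md_A and L1Md_T. The 22 L1Md_Gf loci of 4 to 8 kb had a median span of 4786 bp (4344 to 5326).

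Medians of L1Md_A regions elsewhere lay near those of the set, but not all within its intervals. Regions in introns had a median of 834 bp (796 to 888) and 28.7 per kb. Those beyond 500 kb from a TSS had 722 bp (649 to 761) and 28.9 per kb. Neither length interval overlapped the 764 to 787 bp of the set. On X, the 524 intergenic regions within 500 kb had 783.5 bp and 27.2 per kb (26.5 to 27.9), below all 19 autosomal medians of 28.0 to 30.0. Loci of 4 to 8 kb had median spans of 5034 bp in introns (4956 to 5152) and 4976 bp beyond 500 kb (4862 to 5085). Both were close to the 5042 bp between autosomal genes. On X the median span was 5206 bp (5019 to 5423) over 66 loci. That interval holds both the 5042 bp and the 5406 bp of autosomal L1Md_T loci. The older family L1Md_F2 was unlike L1Md_A. Of its 481 regions, 69.9% were 500 bp long and none reached 3 kb, with a median of 24.97 per kb. IAPEz-int, the internal part of a mobile endogenous retrovirus, had 32.1 per kb over 1203 regions and none of 5 kb.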

How the data were processed

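Testis chromatin was immunoprecipitated for PHF13 (SPOC1) and sequenced beside input. Per the submitters' processing notes, Bowtie2 2.2.2, SAMtools and HOMER 4.6 were used with build mm10, with no roles given. The authors deposited 1 list of regions, annotated by HOMER per the file headers. Its score is the authors' own, with no stated unit and 1 value per region, so depth and replicate error are unknown. How reads matching several copies were placed, and the peak settings, are not given in the sources used here.

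Members were chosen by chromosome, class, repeat and distance. The members, gene lists and measures were chosen with earlier results of these data known. Score was divided by length. Loci joined members less than 10 kb apart; the joining was checked on simulated data. Shares have Wilson and medians order-statistic (binomial) 95% intervals; that of a difference combines both medians' intervals. Density used the span from the first to the last listed region. RefSeq GRCm38.p6 gave genes and promoter sequences; motifs were not searched. No difference was tested. Named were the 5 members highest in score, length and score per kb (at least 1000 bp), the 5 closest to a TSS, the runs with most members in 100 kb, the 15 genes named most often (18 with ties), and list genes with a member. No coordinates on chromosome 18 are given. Computation used SciPy 1.17.1, NumPy 2.4.6 and pandas 2.3.3 under Python 3.11.15; figures used matplotlib 3.10.9.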

Additional observations from a re-analysis of the deposited data

How the results depend on the processing

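Under alternative settings, only the differences between L1Md_A and L1Md_T could change sign, and 0 of them did. Of 82 values recomputed under alternatives, 54 stayed within the counting interval of the reported value, or within 1.5 times for counts. The rest moved as follows; the settings that keep long or strong regions move these values by construction. With the 50% of listed regions with the higher score, there were 2138 members, 19.06% of autosomal regions, with a median of 1056 bp and 31.0 per kb; 2.39% reached 5 kb, spacing was 333 kb, 43% had a neighbour within 10 kb, and the length difference to L1Md_T was -70 bp. Without regions of 500 bp, these were 18.8%, 971 bp, 29.8 per kb, 2.17%, 285.5 kb, 41.8% and -82 bp. Joined below 10 kb, covered length was 1213 bp, 3.3% reached 5 kb, spacing was 406 kb and 0% had a neighbour, which the joining fixes. The length difference of joined loci was -43 bp, with an interval that spans 0 (-131 to 76.5). With no distance limit, the share was 20.7% and the distance 167.5 kb. With introns, the share was 21.8%, the distance 112 kb and 50.5% lay upstream. With X, the ratio of highest to lowest density was 3.9. Chosen after seeing the data, 67.6% lay upstream within 50 kb of a TSS, and at 500 bp the score per kb difference was -0.8. The span difference was -363.5 bp joined below 3 kb and -401 bp for loci of 3 to 7 kb. The share of all autosomal regions was not recomputed for joined loci.

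The list has 1 score per region, so short regions, with few tags if a score step is 1 tag, are the least precise. No paired analysis was possible because single libraries have no values in the list; leaving out replicates was not possible for the same reason.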
